A study of Drosophila melanogaster with 2 samples.

Results

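The lysozyme genes of Drosophila melanogaster named Lys and a single capital letter were examined in the posterior midgut, the hind part of the middle intestine, where food is absorbed. They were chosen by deposited gene symbol, which took 7 of 13816 loci: LysB, LysC, LysD, LysE, LysP, LysS and LysX. The RNA came from pooled guts of wild-type Oregon R females, raised at 25 °C and dissected at 45 days or at 5 days of age, and the labels give 3 biological replicates per age. The authors' tables compare a treatment set with a control set, but which age carries which name is stated in none of the sources used here. All values are therefore given as treatment against control, a contrast of both ages whose direction is unstated.

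Lysozymes cut the sugar backbone of peptidoglycan, the mesh that gives bacterial cell walls their strength. In many animals they are immune effectors, whereas the Lys genes of flies are known above all from the digestive tract, where they are thought to help digest ingested bacteria. They encode small secreted proteins of the chicken type of lysozyme. LysB, LysC, LysD and LysE are near-identical copies active in the midgut, LysP is known from the adult salivary gland, LysS from the gastric caeca, and LysX from the gut around metamorphosis.

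The 7 genes lie together on chromosome arm 3L and span 33501 bases in the coordinates of the deposited table, whose genome build is not named. Each is listed with a single exon. LysX occupies 1194739 to 1195302 on the minus strand, at the left edge. LysB (1207371 to 1207868), LysC (1210485 to 1210971), LysE (1212924 to 1213413) and LysS (1227768 to 1228239) are on the plus strand. LysD (1210717 to 1211196) and LysP (1218082 to 1218696) are on the minus strand. LysC and LysD point towards each other and overlap by 255 bases, so without strand information a read from the overlap cannot be given to either gene, and no strand setting is stated. LysC, LysD, LysE, LysP and LysS lie inside the span of mwh, a gene of planar cell polarity. The Release 6 RefSeq gene table lists LysC as a pseudogene and the other members as protein coding.

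Lysozyme expression was higher in the treatment set. LysX, LysB, LysC and LysD rose, 0 of the 7 genes fell, and LysE, LysP and LysS did not pass the authors' test at an adjusted p under 0.05. That test, whose values stand in the authors' deposited table of transcripts, called 33.0% of the 11198 loci that have a p-value, 17.0% higher and 16.0% lower in treatment. Levels below are the authors' normalized expression (NE), the reads of a transcript divided by its length and by the library's mapped reads and multiplied by a constant, given as the authors' mean ± SD over the replicates of a set. On the NE scale the median log2 fold change was 1.04 over the 6 members present in both sets and 0.20 over all loci. Most of those 6 are the near-identical copies LysB to LysE, which may share reads, so the values are not independent. Outside the copies, LysX had 0.86 and LysP, which was not called, 0.64. The authors' test uses another scaling, on which fold changes lie lower by about the median of all loci. A bulk sample pools all cells of the gut, so more cells of a type and more RNA per cell cannot be told apart.

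LysX held by far the highest level of the family, at 4.01 ± 0.0980 NE in treatment and 2.21 ± 0.0280 NE in control. The gap between the means was 18.3 times the larger SD. The fold change was 1.81, or 0.86 on the log2 scale, and the adjusted p in the authors' deposited table was 1.33e-28. Of all loci with a fold change, 9.60% had a larger one. By level LysX ranked 371 among the 11198 loci.

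LysC, the most abundant of the near-identical copies, had the largest fold change of the family on this scale. It stood at 0.380 ± 0.00881 NE in treatment and 0.143 ± 0.00455 NE in control, a log2 fold change of 1.41 (2.65-fold; authors' adjusted p = 5.05e-29). LysD, its overlapping partner, stood at 0.235 ± 0.0123 NE in treatment and 0.0930 ± 0.00742 NE in control, a log2 fold change of 1.34 (2.52-fold; authors' adjusted p = 7.85e-20). LysB lies outside the overlap but, as a near-identical copy, may share reads with LysC and LysD. It rose as well, at 0.103 ± 0.00164 NE in treatment and 0.0446 ± 0.00547 NE in control (log2 1.22, 2.32-fold, authors' adjusted p = 6.14e-08). For LysC, LysD and LysB, 3.63%, 4.11% and 5.13% of loci had a larger fold change.

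LysE and LysP were at the low end and did not pass. LysE stood at 0.0382 ± 0.00775 NE in treatment and 0.0218 ± 0.00618 NE in control, so the gap was 2.11 times the larger SD (log2 0.81; authors' adjusted p = 0.0754). In the authors' deposited table of genes LysE has an adjusted p of 0.00291, which does pass. LysP, the salivary gland lysozyme, stood at 0.0140 ± 0.00328 NE in treatment and 0.00900 ± 0.00205 NE in control (log2 0.64; authors' adjusted p = 0.466), and its ranges of mean ± SD met. LysS was listed at 0 in treatment and at 0.000430 ± 0.000610 NE in control (authors' adjusted p = 1), so no fold change is given.

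**Figure D1:**
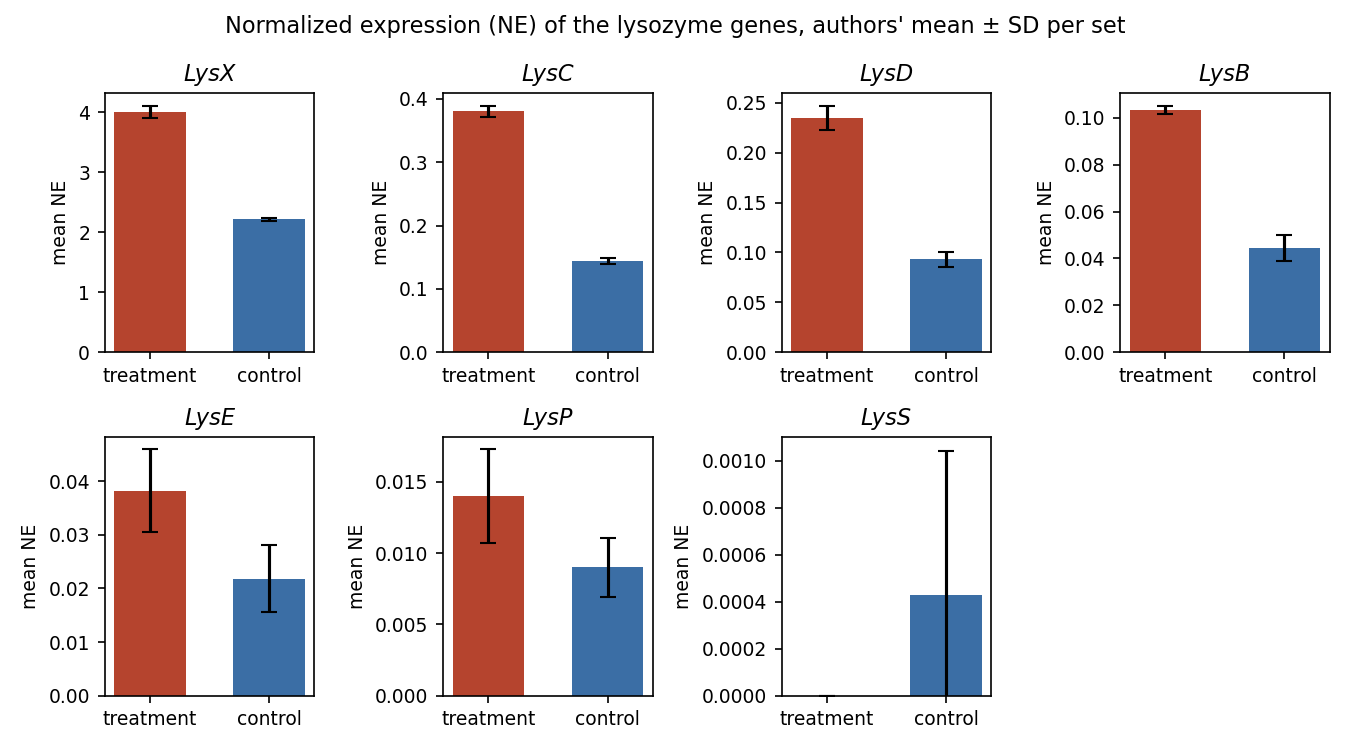
The authors' mean normalized expression (NE, vertical axes from 0, each with its own range) of each lysozyme gene in the treatment set (red, left) and the control set (blue, right), with the authors' SD as bars. Treatment is above control by many SDs for LysX, LysC, LysD and LysB, by 2.11 for LysE, and the ranges meet for LysP and LysS.

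NE is per length of transcript, so levels can be set against each other between genes. LysB to LysE are near-identical and may share reads, so the levels, ratios, shares and fold changes of single copies are uncertain and are not independent measurements. By NE the order was LysX, LysC, LysD, LysB, LysE, LysP and LysS in treatment and the same in control. Neighbours in this order were apart by more than both SDs in each set. LysC was 1.62 times LysD in treatment and 1.54 times in control, LysD was 2.27 and 2.09 times LysB, LysB 2.71 and 2.04 times LysE, and LysE 2.72 and 2.42 times LysP. The place of LysD before LysB held only in this table: per kilobase of transcript, the mean normalized count in the authors' deposited table of genes was 179 for LysC, 126 for LysB, 79.4 for LysD and 75.5 for LysE.

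The level of LysX relative to the copies differed between the sets for LysC, LysD and LysB more than for LysE. There was 10.5 times as much LysX as LysC in treatment and 15.4 times in control. For LysD the ratio was 17.1 in treatment and 23.8 in control, for LysB 38.7 and 49.7, and for LysE 105 and 101. LysX made up 83.9% of the summed NE of the family in treatment and 87.6% in control, while LysB to LysE together made up 15.8% in treatment and 12.0% in control. Their summed NE was 0.757 in treatment and 0.303 in control (2.50-fold), against 1.89-fold for all 7 genes. The ratios and shares within a set do not depend on the scaling between sets, whereas both fold changes do. None of these values carries a test here.

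Among the copies themselves the proportions were closer. LysC made up 50.2% of the summed NE of LysB to LysE in treatment and 47.4% in control. LysD made up 31.0% and 30.7%, LysB 13.7% and 14.7%, and LysE 5.04% and 7.20%, in treatment and control in each case. LysB thus held a larger share of the whole family in treatment (2.17%, against 1.76% in control) but a smaller share of the copies.

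**Figure D2:**
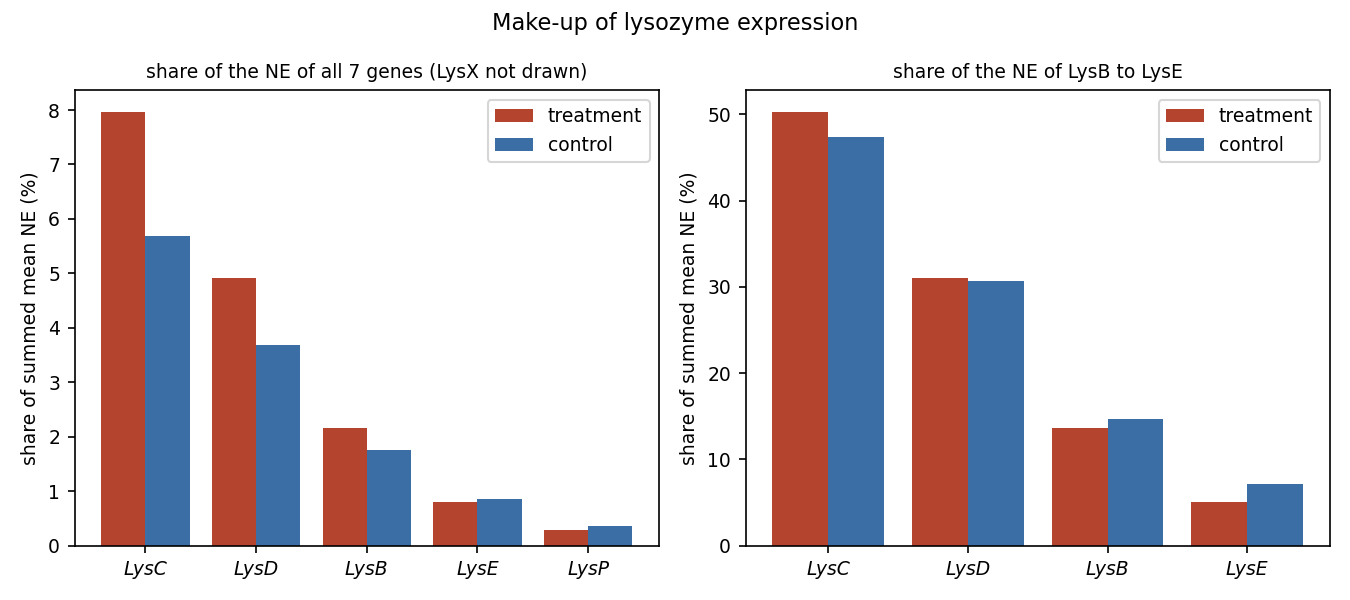
Share (percent, axes from 0) of the summed mean NE held by single genes in the treatment set (red, left bar) and the control set (blue, right bar), over all 7 genes in the left panel, where LysX is not drawn, and over LysB to LysE in the right panel. LysC, LysD and LysB hold more of the family in treatment, while within the copies LysC holds 50.2% in treatment and 47.4% in control.

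How reads were counted bears on these values. LysD has a pair of listed transcripts, of 480 and 472 bases, and NE times length was 112.7 for both in treatment. Reads counted in full under both, or split evenly between them, would give equal values, and which was done is not stated. LysP, with transcripts of 616 and 615 bases, likewise had 8.62 for both in treatment. The authors' deposited table of genes gives a mean count, divided by size factors, of 2247 for LysX, 87.1 for LysC, 62.9 for LysB, 38.1 for LysD and 37.0 for LysE. Set against NE times length, with the median of the 3632 matched loci as 1, these counts were 0.470 for LysC, 0.333 for LysD, 0.881 for LysX, 1.17 for LysB and 1.73 for LysE. The quartiles of the matched loci were 0.961 and 1.05, and all of them have an adjusted p of at most 0.0999 in the table of genes. Of these loci 0.386% lay below LysD, 0.716% below LysC and 0.220% above LysE. LysC, LysD and LysE thus differ in level between both tables far more than most of these loci. LysE, low in one table, is close to LysD in the other.

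The direction was the same in both tables for the 5 members listed in the authors' deposited table of genes. Both tables make the same comparison, so this is no separate support. The table of genes lists 4101 genes with adjusted p-values of at most 0.0999, and LysP and LysS are not among them. There the log2 fold change was 0.60 (SE 0.04) for LysX, 1.08 (SE 0.16) for LysC, 1.17 (SE 0.25) for LysD, 1.23 (SE 0.18) for LysB and 0.78 (SE 0.23) for LysE. The NE values gave log2 fold changes higher by a median of 0.20 over 3630 loci, by 0.25 for LysX, 0.33 for LysC, 0.17 for LysD and 0.03 for LysE, while for LysB the difference was -0.02. LysB, not LysC, had the largest fold change in the table of genes, and the SEs of LysB, LysC and LysD there are larger than the differences among them.

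**Figure D3:**
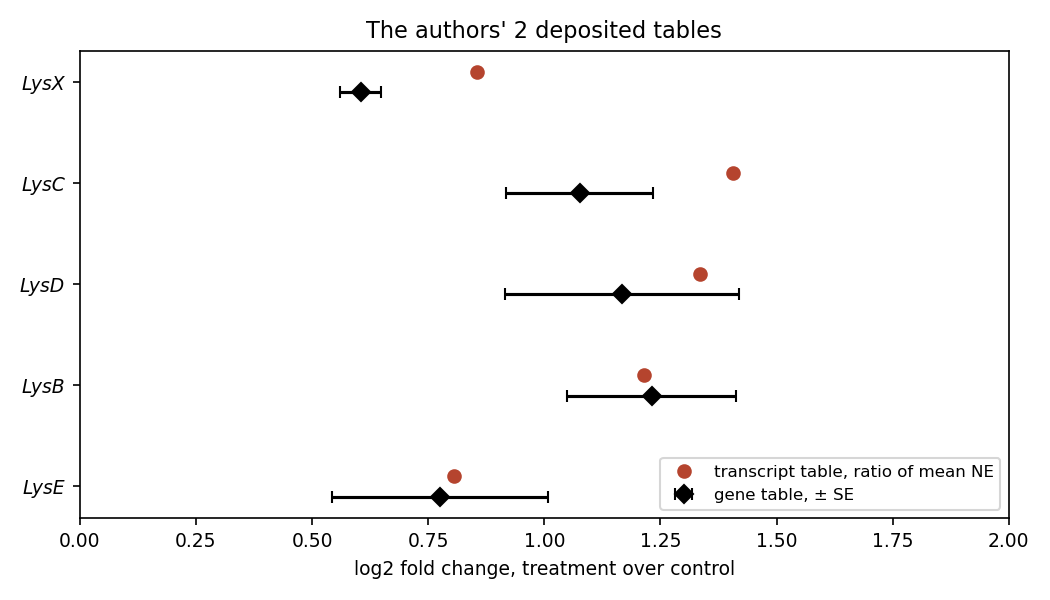
Log2 fold change of treatment over control of the 5 lysozyme genes in both deposited tables, from the table of genes (black diamonds, ± the authors' SE) and from the ratio of mean NE in the table of transcripts (red circles). All values are above 0, and LysC differs most between the tables, at 1.08 and 1.41.

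Genes next to the cluster went both ways. Within 50 kb of a lysozyme gene lay 20 other loci, 18 of them with a p-value. Of these 18 the authors' test called 3 higher and 5 lower, against 17.0% higher and 16.0% lower over all loci. CG33965, beyond the right edge, fell to 0.348 ± 0.0218 NE in treatment, against 0.831 ± 0.0227 NE in control (authors' adjusted p = 4.66e-104). CG13912, on the left, also fell (0.137 ± 0.0142 NE in treatment and 0.173 ± 0.00825 NE in control, authors' adjusted p = 6.61e-06), as did galene (0.0112 ± 0.00151 and 0.0157 ± 0.00194 NE, 0.000223). CG33966 was called lower too (1.66 ± 0.0571 and 1.71 ± 0.0626 NE, 0.000865), but its log2 ratio of NE was only -0.05 and its ranges of mean ± SD met. Between LysX and LysB, meep rose (0.102 ± 0.00894 and 0.0598 ± 0.00377 NE; authors' adjusted p = 3.9e-05), and so did CG9119 (0.498 ± 0.0305 and 0.384 ± 0.00871 NE; 0.0414). The gene mwh, around most of the cluster, stood at 0.00599 ± 0.000480 NE in treatment and 0.00380 ± 5e-05 NE in control and did not pass (authors' adjusted p = 0.14).

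**Figure D4:**
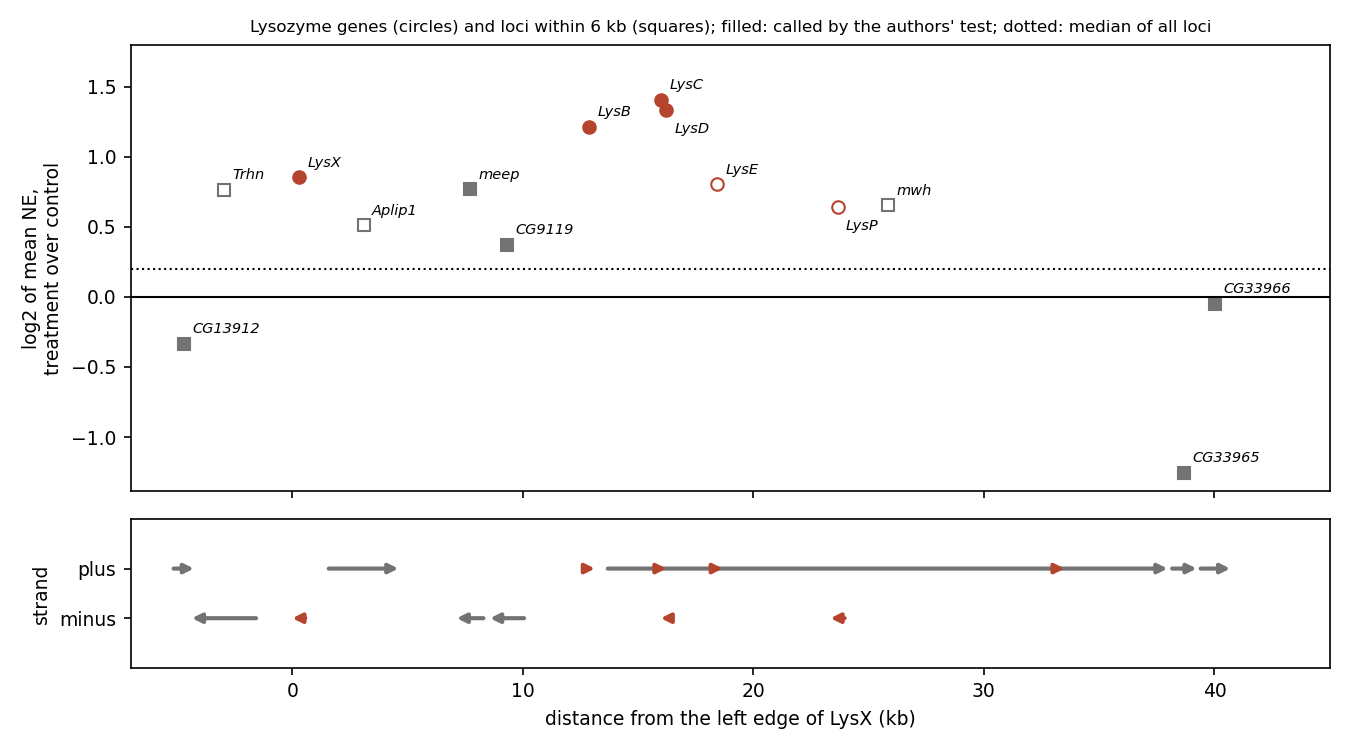
Upper panel: log2 ratio of mean NE, treatment over control, of the lysozyme genes (red circles) and of loci with a p-value within 6 kb of them (grey squares), by distance from the left edge of LysX in kb, filled where the authors' test called the gene and with the median of all loci dotted. Lower panel: extent and direction of these transcripts and of LysS by strand. The called lysozyme genes lie above the dotted line, and neighbours lie on both sides of it.

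Lysozyme-domain genes outside the cluster were mostly at very low levels. Of 11 such genes, 6 of the chicken type and 5 of the invertebrate type, 10 had a p-value. Of these, 1 rose and 0 fell, against 17.0% called higher and 16.0% lower over all loci. The gene that rose was CG16799, of the chicken type, with 0.814 ± 0.00478 NE in treatment and 0.489 ± 0.00785 NE in control (1.67-fold, authors' adjusted p = 2.51e-13). CG16799 was thus above every Lys gene but LysX in both sets. CG16756 stood at 0.0254 ± 0.00163 and 0.0205 ± 0.00188 NE (authors' adjusted p = 0.856), and CG6426, of the invertebrate type, at 0.0121 ± 0.00278 and 0.00793 ± 0.00258 NE (0.427). CG6435 was listed at 0 in both sets, and CG7798, CG8492, CG11159, CG30062, CG6421, CG6429 and CG14823 did not exceed 0.00426 NE in either.

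Genes that sense or cut peptidoglycan went both ways. Of 13 peptidoglycan recognition protein genes, 11 had a p-value, of which 2 rose and 4 fell. The amidase genes of the SC group, whose products cut the peptide from the sugar backbone, were among those that fell: PGRP-SC2 stood at 30.0 ± 0.749 NE in treatment and 37.9 ± 0.562 NE in control, far above LysX in level (authors' adjusted p = 3.68e-19). PGRP-SC1a stood at 1.86 ± 0.0831 and 2.90 ± 0.0611 NE (7.52e-37), and PGRP-SC1b, a close paralogue that may share its reads, at 0.395 ± 0.0415 and 0.655 ± 0.0629 NE (3.31e-28). PGRP-SD rose, with 0.235 ± 0.00625 NE in treatment and 0.131 ± 0.00773 NE in control (1.64e-09). In the IMD pathway, the immune signalling route that peptidoglycan sets off, 2 of 15 genes rose and 2 fell. Beside the counts of both lists, the authors' test called 17.0% of all loci higher and 16.0% lower. The kinase subunit gene key rose 1.60-fold (authors' adjusted p = 1.99e-15) and the inhibitor gene pirk 1.47-fold (5.05e-08), whereas cad, a repressor of antimicrobial peptide genes in the gut, stood at 0.345 ± 0.0197 NE in treatment and 0.421 ± 0.0175 NE in control and fell (1.33e-12).

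Antimicrobial peptide genes, the best-known targets of that pathway, were low in level. Of 18 genes 16 had a p-value, 7 rose (DptB, AttC, CecA1, Def, Dro, Drs and Mtk) and 1 fell (AttD). Over all loci 17.0% were called higher and 16.0% lower. All 18 genes together held 0.397 NE in treatment and 0.269 NE in control. Drs stood at 0.0545 ± 0.0138 NE in treatment and 0.00615 ± 0.00365 NE in control (authors' adjusted p = 8.26e-16), and CecA1 at 0.0752 ± 0.0155 and 0.0212 ± 0.000990 NE (8.8e-09). Both were below LysD in treatment and in control. The other genes that rose, DptB, AttC, Def, Dro and Mtk, did not exceed 0.0168 NE in either set. AttD, which was called lower, had the highest level of the list, above LysD in control but not in treatment. It stood at 0.134 ± 0.00671 NE in treatment and 0.146 ± 0.00974 NE in control, and its ranges of mean ± SD met.

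Markers of gut cell types and regions also differed. For comparison, the authors' test called 17.0% of all loci higher and 16.0% lower. Of 3 posterior midgut markers, none at 0, Ptx1 rose and cad fell (summed level 0.959 NE in treatment and 0.955 NE in control). Of 6 copper cell and anterior midgut markers, none at 0, 3 rose and 1 fell (16.2 and 14.7 NE). Among those that rose, lab, which specifies copper cells, stood at 0.0100 ± 0.000490 NE in treatment and 0.00132 ± 0.000210 NE in control. Vha100-4 rose too, with 0.108 ± 0.00722 NE in treatment and 0.00344 ± 0.00066 NE in control. Mur29B, the other that rose, had 8.11 ± 0.165 NE in treatment and 4.04 ± 0.133 NE in control. Ance, which fell, stood at 7.91 ± 0.188 NE in treatment and 10.6 ± 0.402 NE in control. The markers dve and ptc were not called. Of 7 enterocyte markers 1 was called higher and 5 lower (39.6 and 57.1 NE). The calls use the test's own scaling. Among the enterocyte markers called lower, Myo31DF had an NE that was not lower, at 0.698 ± 0.0165 in treatment and 0.687 ± 0.0160 in control (authors' adjusted p = 0.0357). Of 8 enteroendocrine markers 0 rose and 5 fell (2.61 and 3.25 NE), and of 5 visceral muscle markers 0 rose and 4 fell (2.10 and 3.94 NE). Among 6 markers of stem cells and enteroblasts, 5 were called higher and 0 lower (0.526 and 0.301 NE). Of 4 salivary gland markers PH4alphaSG1 was at 0 and 2 were called lower (0.112 and 0.151 NE). CrebA, called lower, held most of this level, at 0.101 ± 0.00943 NE in treatment and 0.107 ± 0.00861 NE in control. Its ranges of mean ± SD met. PH4alphaSG2, also called lower, stood at 0.00813 ± 0.00275 NE in treatment and 0.0408 ± 0.00157 NE in control. The part of these cells in the lysozyme values was not tested.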

How the data were processed

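Poly(A) RNA was sequenced; DESeq is named in the submitters' processing notes, and the sources used here give no aligner, build or rule for shared reads. The authors deposited, per transcript, a mean and SD of normalized expression for each set (used here as a score) and a p-value with an adjusted p-value. Per gene, the deposited table gives a mean normalized count (a score), a log2 fold change with SE, and an adjusted p-value. Per the file headers, its sign convention is not stated; it matched the authors' direction of treatment over control for 3626 of 3632 matched loci. The 12 columns of single replicates, among them 6 of read counts, match no single sample in the labels and were not used here, so depth per library is not given and the planned edgeR tests were replaced by the authors' own. The authors' SD divides by the number of replicates, since the largest ratio of SD to mean is 1.414.

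Of 24047 transcripts 145 predicted ones were left out. Each locus was represented by the transcript with the highest NE times length, and 6 loci with a repeated symbol were dropped; RefSeq gave symbols for 12820 loci. A gene was called at the authors' adjusted p under 0.05, with the direction the authors give. Ratios and shares were computed with pandas 2.3.3 from the set means. P-values measure the spread between pooled libraries. All members and lysozyme-domain genes were named, with the nearest called neighbours and up to 3 called genes per pathway list, while cell type lists are given by their counts; other genes were named after their values were seen. The members and the 15 lists were chosen with earlier results of these data known. PGRP-LD and Act57B were not analysed here. Of 6 fat body markers with a p-value, 4 were called higher and 1 lower. For hemocyte markers it was 1 higher and 0 lower of 4. Cardia markers had 2 higher and 0 lower of 4, and Malpighian tubule markers 0 higher and 1 lower of 4. Over all loci 17.0% were called higher and 16.0% lower.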

Additional observations from a re-analysis of the deposited data

How the results depend on the processing

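With the least-read transcript of each locus, 3581 loci were called in place of 3698, and LysX, LysB, LysC and LysD kept their direction and their call. In the authors' deposited table of genes, an alternative chosen after seeing the data, LysE passed at a log2 fold change of 0.78 (adjusted p = 0.00291), which made 5 members called in place of 4. That table lists only genes with an adjusted p of at most 0.0999, and 3657 of its 4101 genes are under 0.05. Its count of members called is therefore not comparable with the count over all loci. With the largest copy in place of the sum of LysB to LysE the log2 fold change was 1.41 (1.32 for the sum). Shares within LysB to LysE differed between treatment and control by -1.04 percentage points for LysB (0.40 within the family), 2.88 for LysC (2.28), 0.32 for LysD (1.23) and -2.16 for LysE (-0.06). Within 100 kb 13 of the 29 neighbouring loci with a p-value were called, 4 higher and 9 lower. Within 20 kb 8 of 15 were called, 3 higher and 5 lower, the same counts as within 50 kb. Over all loci 17.0% were called higher and 16.0% lower. No paired analysis was possible because the columns of single replicates, which the deposited table holds, match no single sample in the labels and were left out here. For the same reason edgeR, DESeq2, other scalings, filters, summed transcripts and leaving out a replicate were not run, so whether 1 library decides a value was not tested, and low levels such as those of LysP and LysS are given without the depth behind them.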
